A study of Mus musculus with 32 samples.

Results

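The exposure of cultured cortical neurons from the mouse to miR-92a-1-5p was compared directly, after 5 d, with an exposure of the same length to Mut.oligo, the mutated form of let-7b that served as the control for RNA sequence. The members were the 4 libraries labelled miR-92a-1-5p and the 4 labelled Mut.oligo at 5 d, chosen by these labels alone, which made 8 of the 32 RNA-seq libraries of the series. The cells of every group were primary cultures from wild-type (WT) C57BL/6 mouse embryos, kept in Neurobasal medium with B27 supplement, and the labels do not give the number of animals behind a library. Both oligoribonucleotides were synthetic single strands, phosphorylated at the 5′ end and joined by phosphorothioate bonds, and were added to the medium. Untreated cultures (n = 4) and cultures given miR-124-5p (n = 4) at 5 d entered the model of 16 libraries. Without a covariate they bear only on its estimate of the spread, while with the experiment batch as a covariate they also help to set the batch terms and so the fold change. The corresponding 4 and 4 libraries at 6 h were used for 1 comparison across time. Each library belonged to a labelled experiment batch. The miR-92a-1-5p replicates 1 to 4 came from batches 2, 3, 10 and 12, and the replicates 1 to 4 labelled Mut.oligo from batches 3, 9, 10 and 12, so that 3 batches held 1 library of each group. This order of replicates is kept wherever 4 values are given below.

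MicroRNAs are short RNAs that guide Argonaute proteins to messenger RNAs through their seed, the bases near the 5′ end, and pairing with a 3′ untranslated region (UTR) usually lowers the amount of that messenger. Outside the cell, single-stranded RNA can instead be bound in endosomes by Toll-like receptor 7 (TLR7), which signals through the adaptor MYD88 to cytokine and chemokine genes. The direct comparison therefore asks what differs between exposure to a miRNA and exposure to another oligoribonucleotide of the same chemistry, with the effects common to both removed. Embryonic cortical cultures hold mostly postmitotic neurons, together with glial progenitors that still divide and that give rise to astrocytes and oligodendrocytes.

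The mature sequences are shown because their seeds define the sites counted in 3′ UTRs. They are given 5′ to 3′ from RefSeq (GRCm38.p6) with the seed, bases 2 to 8, in capitals. The first is encoded on the plus strand at chr14:115044437-115044459 and is 23 bases long. The second is let-7b-5p, the miRNA whose mutated form is Mut.oligo, encoded on the plus strand at chr15:85707325-85707346 and 22 bases long. The 2 seeds differ. By the sequence in the study's methods, Mut.oligo keeps the seed of its parent miRNA unchanged. The let-7b sites counted below are therefore also matches to the seed of Mut.oligo, whose full sequence is not printed here.
miR-92a-1-5p: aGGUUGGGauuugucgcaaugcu
let-7b-5p: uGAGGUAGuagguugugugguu

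The labels of the control libraries need a caution. The oligoribonucleotides were not among the counted features, so no measured gene shows which of them a culture received. For genes that the study lists as altered against untreated cells, the distance from the untreated mean did not follow the labels. Of 9 genes listed for miR-124-5p besides miR-92a-1-5p, 9 lay further from the untreated mean in the libraries labelled Mut.oligo than in those labelled miR-124-5p. Of 8 listed for Mut.oligo besides miR-92a-1-5p, 6 lay further in the libraries labelled miR-124-5p. Of 9 listed for all 3 oligoribonucleotides, 8 lay further in the libraries labelled Mut.oligo. The group means were not matched by batch. Untreated libraries came from batches 3, 9, 11 and 12, and those labelled miR-124-5p from batches 2, 3, 10 and 12. These genes were chosen on the same samples. The labels were used as deposited, and the central results are also given with the libraries labelled miR-124-5p in place of those labelled Mut.oligo.

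The miR-92a-1-5p libraries held 38092275 to 48476811 counts and those labelled Mut.oligo 50531961 to 60520413, so the depths did not overlap. The 3 counts used as a detection floor corresponded to 0.0619 to 0.0788 CPM (counts per 1000000) of the unscaled library totals, and to 0.0496 to 0.0594 CPM, while the CPM of genes are per library total scaled by the trimmed mean of M values (TMM). Mitochondrial genes took 1.27% to 2.43% of counts in the miR-92a-1-5p libraries and 1.12% to 1.73% in the others. Replicate 1 of miR-92a-1-5p, from batch 2, stood apart from the rest of its group. It held 0.0259 CPM of Xist, the RNA that silences an X chromosome, against 409 to 889 CPM in the other 3 replicates, and more Pdgfra (30.8 against 6.90 to 8.31 CPM) and Mki67 (22.9 against 8.47 to 10.4 CPM). The other library of batch 2 at 5 d, replicate 1 of miR-124-5p, also nearly lacked Xist (0.0426 CPM). Its summed oligodendrocyte lineage markers were 183 CPM, against 115 to 142 CPM in the rest of its group. Replicate 3 labelled Mut.oligo held 1945 CPM of Gm42418, a gene overlapping ribosomal RNA, against 516 to 674 CPM in its group. Values without replicate 1 of miR-92a-1-5p or without replicate 3 labelled Mut.oligo are given beside the genes they moved most.

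In the comparison of the 4 libraries with the 4, no gene passed the test. Of 19333 genes, 0 were higher (0%) and 0 lower (0%) after miR-92a-1-5p by the quasi-likelihood test of edgeR, and the smallest adjusted p was 1.00. A call required a log2 fold change beyond 0.5 with a Benjamini-Hochberg adjusted p under 0.05. At an unadjusted p under 0.05, 158 genes were higher (0.817%) and 225 lower (1.16%). The groups did not overlap for 163 genes that were higher (0.843%) and 179 that were lower (0.926%). DESeq2 without a covariate also called 0 genes. For 13573 genes of at least 1 CPM the 95% interval of the fold change typically reached 0.220 to each side on the log2 scale (median), and for 11262 of them (83.0%) the interval lay within 0.5 either way. The median log2 fold change over all genes was -0.00.

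The batches carried part of the spread between replicates. Deviations from the group means correlated at 0.292 to 0.553 across genes for the 3 pairs of libraries from 1 batch, and at -0.538 to 0.457 for the 13 pairs from different batches. With the batch as a covariate in the fit of all 16 libraries at 5 d, the median standard error over genes of at least 1 CPM was 0.0757 in place of 0.104. In this fit 0 genes rose (0%) and 2 fell (0.0103%), the oligodendrocyte transcription factor gene Olig2 and the stress cytokine gene Gdf15. At an unadjusted p under 0.05 the fit held 777 higher (4.02%) and 938 lower genes (4.85%). A fit of only the 8 libraries with the batch rests on the 3 pairs within a batch. It leaves few residual degrees of freedom, so its p-values lean on the spread that edgeR shares across genes. Of 18357 genes tested in it, 2 rose (0.0109%) and 16 fell (0.0872%), with 4.66% higher and 5.95% lower at the unadjusted level. Without the minimum fold that fit called 10 higher (0.0545%) and 48 lower genes (0.261%). DESeq2 with the batch on 16 libraries called 2 higher (0.0103%) and 11 lower genes (0.0569%), and 6 (0.031%) and 25 (0.129%) without the minimum fold. Olig2 was the single gene called in all of the 4 fits with the batch, which share libraries. The fourth, DESeq2 on 8 libraries, was added after seeing the data and called 0 genes higher and 6 lower. All 3 shared batches moved one way for 3108 genes that were higher (16.1%) and 2957 that were lower (15.3%).

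**Figure D1:**
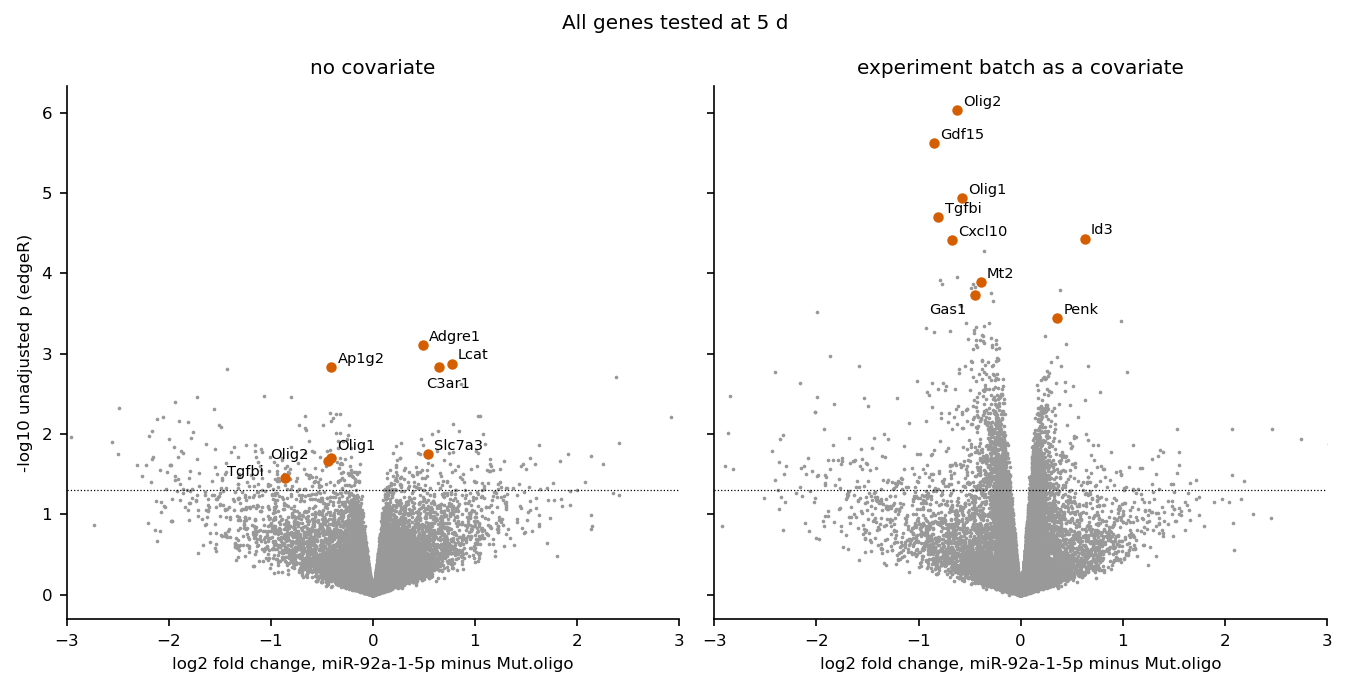
Each point is 1 of 19333 genes at 5 d, with the log2 fold change of miR-92a-1-5p minus Mut.oligo on the horizontal axis and -log10 of the unadjusted edgeR p on the vertical axis, without a covariate (left) and with the experiment batch (right). The dotted line marks an unadjusted edgeR p of 0.05, and Olig2 and Gdf15, at the top left of the right panel, are the 2 genes that passed the adjusted threshold there.

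Olig2 (ENSMUSG00000039830), on the plus strand at chr16:91225457-91228677 of GRCm38, encodes the transcription factor that specifies oligodendrocyte progenitors. It stood at 23.0, 14.2, 12.1 and 13.05 CPM after miR-92a-1-5p and at 20.2, 23.1, 19.2 and 21.6 CPM in the libraries labelled Mut.oligo. Replicates 2 to 4 of miR-92a-1-5p lay below all 4 of the other group, and replicate 1, the library that stood apart, lay among them. The means were 15.6 ± 5.04 (SD, n = 4) and 21.0 ± 1.67 CPM (n = 4), with 29.1 ± 2.21 CPM in untreated cultures (n = 4). The log2 fold change without a covariate was -0.44 (SE 0.173, edgeR unadjusted p = 0.0219, adjusted p = 1.00), and without replicate 1 of miR-92a-1-5p it was -0.69. Within batches 3, 10 and 12 the differences were -0.51, -0.67 and -0.72. With the batch as a covariate Olig2 fell by 0.62 on the log2 scale (SE 0.0705, adjusted p = 0.0180, edgeR), and in the fit of 8 libraries the adjusted p was 3.51e-05. Single libraries were then left out of the covariate fit of 16. The edgeR adjusted p ran from 0.000335 to 0.274 and the fold change from -0.69 to -0.59. Olig2 passed only without replicate 1 of miR-92a-1-5p (adjusted p = 0.000335) or without replicate 1 labelled Mut.oligo (0.0148). In the fits without any other library the call was lost, while the direction stayed.

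Olig1 (ENSMUSG00000046160), the neighbouring gene for a related factor at chr16:91269772-91271933, ran beside it. It held 64.9, 56.1, 36.2 and 39.1 CPM after miR-92a-1-5p and 66.3, 66.8, 64.5 and 63.7 CPM in the libraries labelled Mut.oligo. The latter 4 lay within a narrow range, 3 of the former lay below it, and untreated cultures held 84.9 ± 9.23 CPM (n = 4). Its log2 fold change was -0.41 without a covariate (SE 0.161) and -0.57 with the batch (edgeR adjusted p = 0.0746), with an adjusted p of 0.000416 in the fit of 8 libraries.

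Egfr (ENSMUSG00000020122), the receptor for epidermal growth factor, which marks dividing glial progenitors, was lower in each shared batch (-0.50, -0.51 and -0.76). Its levels were 107, 67.5, 35.8 and 39.6 CPM against 95.2, 67.4, 51.1 and 67.0 CPM. The batches differed more than the groups did, and the log2 fold change without a covariate was -0.17 (SE 0.295). The change was -0.49 with the batch over 16 libraries (edgeR adjusted p = 0.548), and Egfr fell by 0.59 in the fit of 8 (adjusted p = 5.80e-06). Egfr also carries 4 matches to the miR-92a-1-5p seed in its 3′ UTR of 6306 bases, a number that 5 of 15651 genes reached or passed. The 4 stretches are shown because Egfr, unlike Olig1 and Olig2, has such matches. They are read from the plus strand of GRCm38 with the 7 bases complementary to the seed in capitals, at chr11:16913290-16913316, chr11:16914045-16914071, chr11:16914096-16914122 and chr11:16915142-16915168 in this order.
Egfr site 1: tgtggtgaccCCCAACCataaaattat
Egfr site 2: tgcagtagttCCCAACCttcctaatgc
Egfr site 3: tgtggtggccCCCAACCaccaaattat
Egfr site 4: agaggggcacCCCAACCttgattctag

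The 5 genes with at least 4 matches had a median log2 fold change of -0.06 without a covariate and 0.02 with the batch, and 0 of them reached an unadjusted edgeR p under 0.05 without a covariate. Olig1, Olig2 and Gdf15 had 0 such matches and 0 matches to the let-7b seed. A match is a run of letters and not a measured binding site.

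The oligodendrocyte lineage list followed these genes in part. Of 20 members 18 were tested, Mog and Mag being too low, and the median log2 fold change was 0.00 without a covariate and -0.16 with the batch, against medians of about 0 over all genes. With the batch, 0 members were higher and 8 lower at an unadjusted p under 0.05, against 4.02% and 4.85% of all genes. Of the 8, 5 were progenitor genes and 3 myelin genes. Sox10, a factor that works with OLIG2, held 3.83, 1.14, 0.878 and 0.772 CPM against 1.20, 2.55, 1.65 and 1.15 CPM, and its log2 fold change was -0.00 with all libraries and -0.81 without replicate 1 of miR-92a-1-5p. Pdgfra, the platelet-derived growth factor receptor of oligodendrocyte progenitors, held 30.8, 7.63, 6.90 and 8.31 CPM against 9.43, 14.6, 6.98 and 10.02 CPM. Its log2 fold change was 0.38 without a covariate, -0.11 with the batch and -0.43 without a covariate and without that replicate. The summed markers of the lineage ran from 87.8 to 165 CPM after miR-92a-1-5p and from 125 to 142 CPM in the libraries labelled Mut.oligo, with log2 differences of -0.21, -0.51 and -0.42 within the batches. In bulk RNA, fewer cells of a type and less RNA per cell cannot be told apart.

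**Figure D2:**
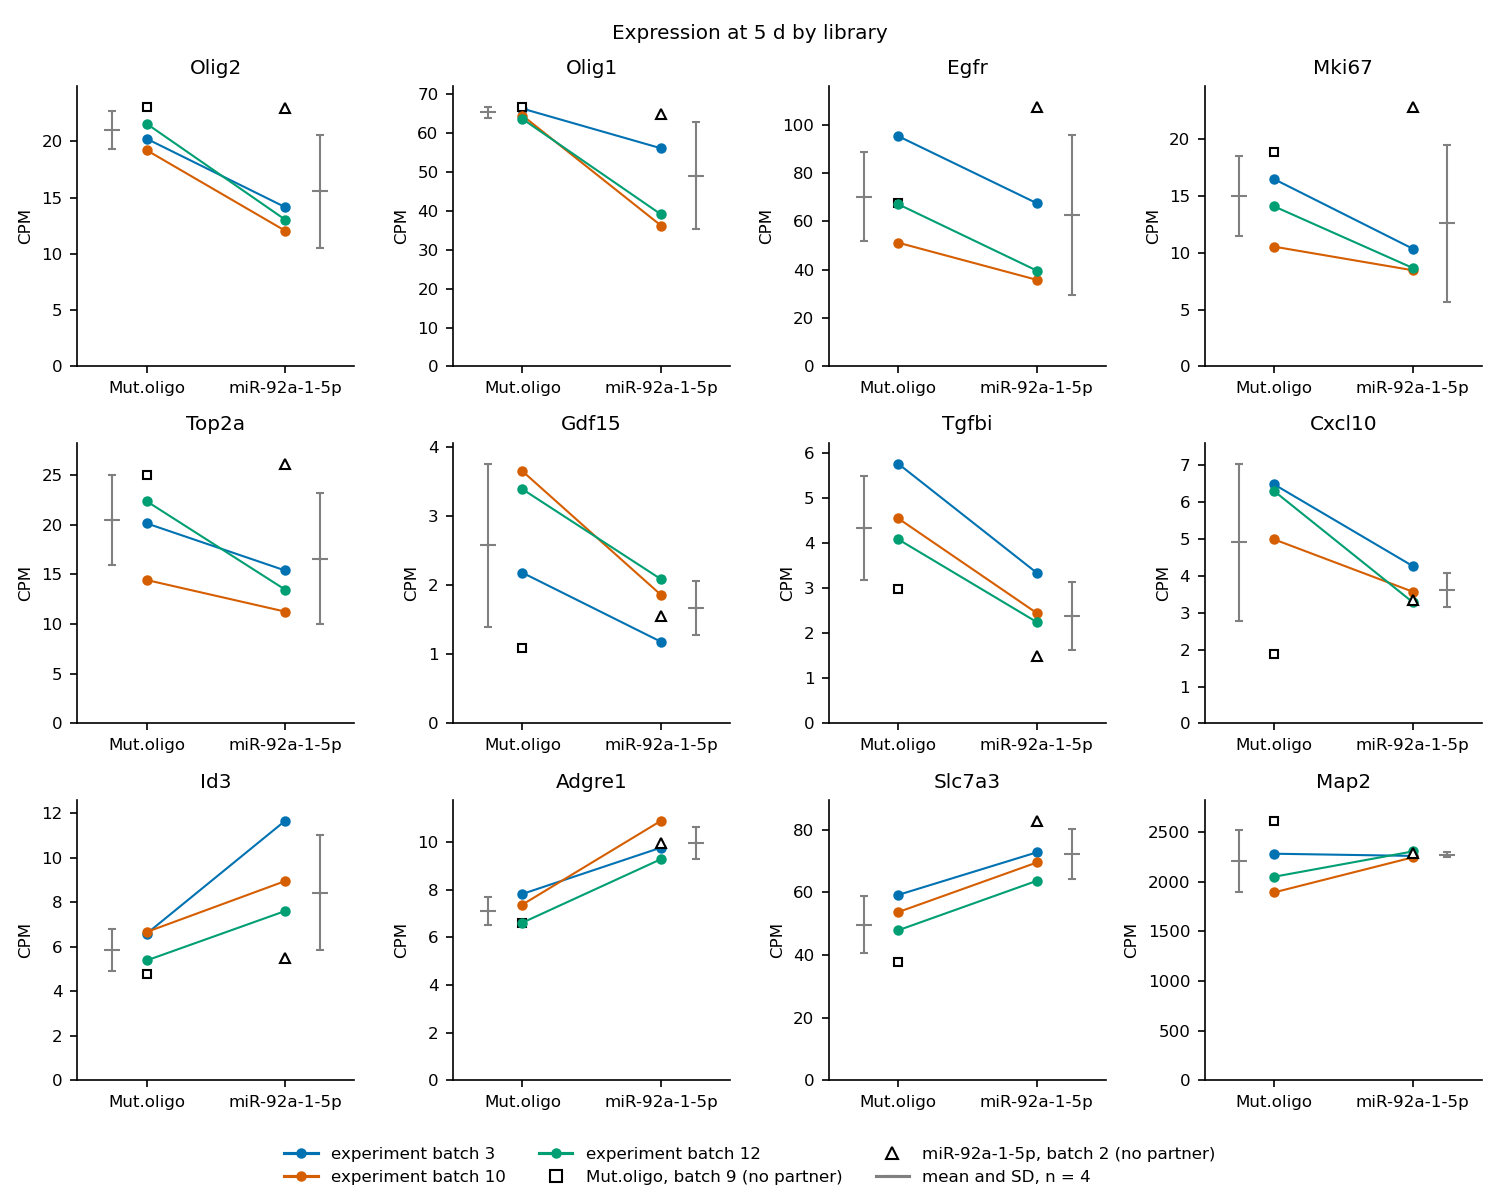
CPM of 12 genes in each of the 8 libraries, with coloured lines joining the 2 libraries of batches 3, 10 and 12, open symbols for the libraries without a partner and grey bars for the mean and SD of 4. The lines for Olig2 and Egfr descend in all 3 batches while the open triangle, replicate 1 of miR-92a-1-5p, lies at the top of its group for both.

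Genes of cell division were lower by small amounts within the batches. The study had already reported gene sets of cell proliferation as enriched among its deregulated genes from these samples. The lists were chosen with earlier results of these data known, so the shares below are not independent evidence. In the mitosis and G2/M list all 46 members were tested, 0 of them higher and 35 (76.1%) lower in all 3 batches, against 15.3% of all genes, and the medians within the batches were -0.18, -0.28 and -0.32. Without a covariate 0 members reached an unadjusted p under 0.05 and the median was -0.18, ranging from -0.38 without replicate 1 of miR-92a-1-5p to -0.09 without replicate 2 labelled Mut.oligo. With the batch 20 members were lower and 0 higher at that level, against 4.85% and 4.02% of all genes, with a median of -0.25. In the list for S phase and DNA replication (40 tested), 16 members were lower and 0 higher with the batch and the median was -0.15. The list of G1 cyclins, kinases and inhibitors (18 tested) held 6 lower and 0 higher.

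Mki67, which encodes the proliferation antigen Ki-67, stood at 22.9, 10.4, 8.47 and 8.67 CPM after miR-92a-1-5p. The libraries labelled Mut.oligo held 16.5, 18.9, 10.5 and 14.1 CPM, and untreated cultures held 25.01 ± 2.96 CPM (n = 4). Replicates 2 to 4 of miR-92a-1-5p lay below that whole group, and replicate 1 above it. That gave a log2 fold change of -0.26 without a covariate, -0.43 with the batch (edgeR adjusted p = 0.562) and -0.57 in the fit of 8 libraries (adjusted p = 0.00149). Without replicate 1 of miR-92a-1-5p and without a covariate it was -0.71. Top2a, the topoisomerase that resolves chromosomes before division, held 26.1, 15.4, 11.2 and 13.5 CPM against 20.1, 24.9, 14.4 and 22.4 CPM. It fell by 0.50 in the fit of 8 libraries (edgeR adjusted p = 0.00233), while the fit of 16 with the batch gave -0.43 (adjusted p = 0.418). The same fit of 16 gave -0.45 for the cyclin gene Ccna2, -0.64 for the kinase gene Melk, -0.58 for the polymerase clamp partner Pclaf and -0.49 for the replication-coupled methylation factor Uhrf1, none of which passed the adjusted threshold. These genes and the oligodendrocyte progenitor genes were lower in the same libraries, and the part of one in the other was not tested.

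**Figure D3:**
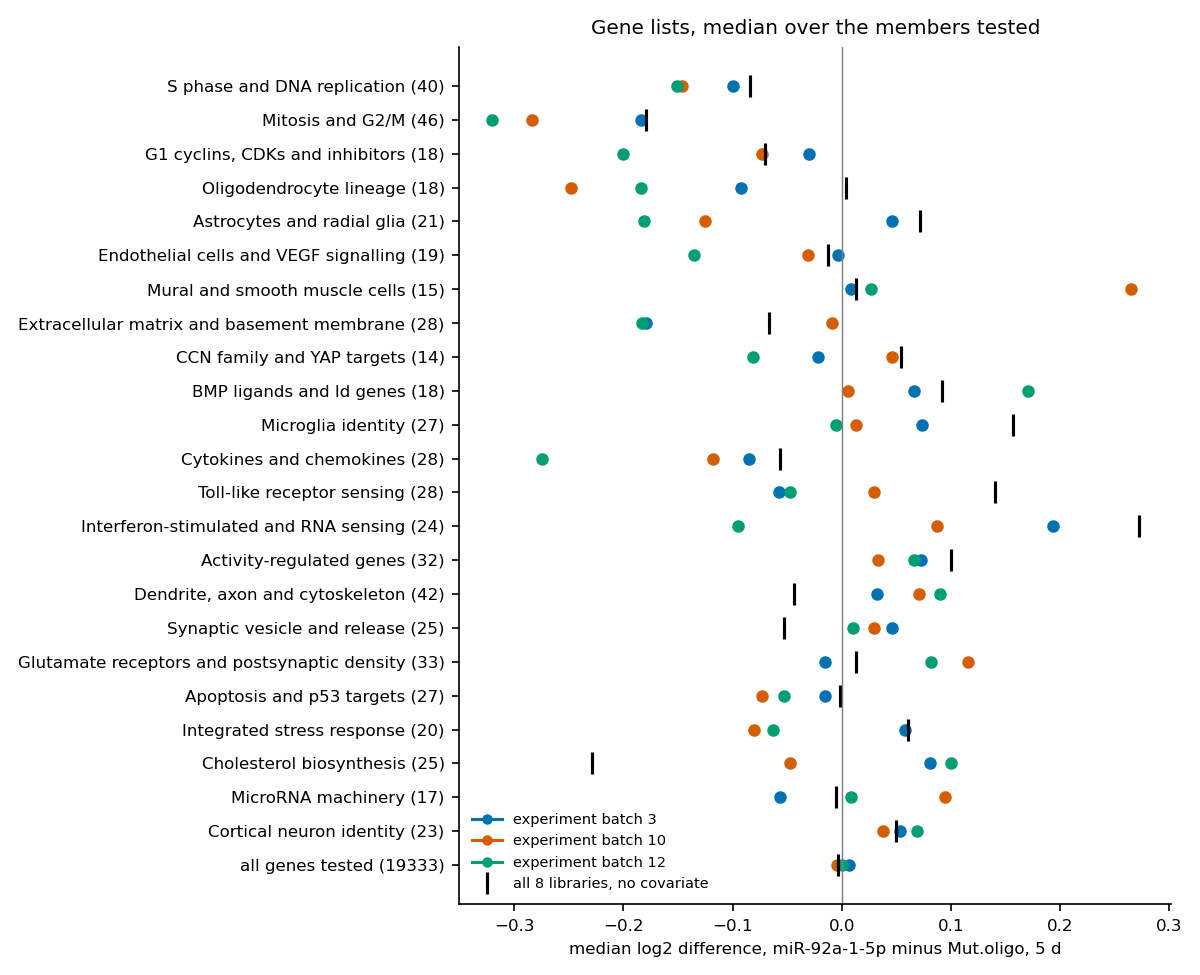
Median log2 difference of miR-92a-1-5p minus Mut.oligo over the tested members of each gene list (number in brackets), with a coloured point for each shared batch and a black bar for all 8 libraries without a covariate. The mitosis points lie at -0.18, -0.28 and -0.32, left of those of all genes, and the points of the 42 dendrite, axon and cytoskeleton genes lie between 0.03 and 0.09.

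Astrocyte and radial glia genes moved less evenly. Of 21 members, 1 was higher and 5 lower at an unadjusted p under 0.05 with the batch, against 4.02% and 4.85% of all genes. The median was -0.07. Aldh1l1, a folate enzyme that marks astrocytes, held 78.3, 81.7, 71.3 and 72.1 CPM against 87.3, 85.5, 90.5 and 92.7 CPM. The groups did not overlap, and the log2 fold change was -0.23 (SE 0.0989, unadjusted p = 0.0319) without a covariate and -0.32 with the batch, with an edgeR adjusted p of 0.0257 in the fit of 8 libraries but a size under the 0.5 required for a call. Nes, the intermediate filament gene of neural progenitors, averaged 45.2 and 51.1 CPM. Aqp4, the water channel of mature astrocytes, averaged 167 CPM after miR-92a-1-5p and 122 CPM in the other group, with a log2 fold change of 0.45 without a covariate (edgeR unadjusted p = 0.187). Astrocyte genes thus lay on both sides. The summed radial glia markers ran from 683 to 752 CPM against 732 to 795 CPM, and those of astrocytes from 1073 to 1787 against 1034 to 1777 CPM.

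Several chemokine genes were lower in the shared batches. Cxcl10, an attractant of T cells, stood at 3.34, 4.27, 3.57 and 3.29 CPM after miR-92a-1-5p and at 6.49, 1.88, 4.99 and 6.30 CPM in the libraries labelled Mut.oligo. The 3 libraries of shared batches lay above every miR-92a-1-5p library and replicate 2, from batch 9, below all of them. The log2 fold change was -0.44 without a covariate (SE 0.352) and -0.67 with the batch (edgeR adjusted p = 0.125), with an adjusted p of 0.00607 in the fit of 8. Cxcl1, an attractant of neutrophils, held 0.802, 1.82, 2.03 and 2.84 CPM against 2.83, 0.162, 4.40 and 5.65 CPM. Ccl2, an attractant of monocytes, held 0.931, 1.68, 1.38 and 2.02 CPM against 2.65, 0.283, 2.27 and 4.00 CPM. For these 2 genes replicate 2 labelled Mut.oligo was the lowest of all 8 libraries, and both genes fell in the fit of 8 libraries (edgeR adjusted p = 0.00159 and 0.0158) and not in that of 16.

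Of 11 chemokine genes tested, 3 were higher and 6 lower in all 3 batches, against 16.1% and 15.3% of all genes. At an unadjusted p under 0.05 with the batch 1 was higher and 5 lower, against 4.02% and 4.85% of all genes. The higher one, Ccl3, codes for macrophage inflammatory protein 1-alpha and held 0.827, 0.518, 0.606 and 0.817 CPM against 0.354, 0.486, 0.376 and 0.379 CPM. Its groups did not overlap (log2 fold change 0.79, SE 0.260, unadjusted p = 0.00754, edgeR adjusted p = 1.00). Ccl9, its relative, averaged 3.46 ± 0.620 and 2.65 ± 0.297 CPM (n = 4 each), with differences of 0.32, 0.24 and 0.50 within the batches. The whole list of cytokines and chemokines (28 tested) held 1 higher and 10 lower members at an unadjusted p under 0.05 with the batch, with a median of -0.16. The inflammatory cytokines themselves were near the floor. Tnf, Il1a, Il1b and Il6 averaged 0.0705 to 0.252 CPM in the libraries labelled Mut.oligo and 0.0852 to 0.147 CPM after miR-92a-1-5p, with 0 to 31 counts per library and differences between the groups were hardly detectable at this depth.

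Gdf15 (ENSMUSG00000038508), a cytokine of the transforming growth factor family that cells make under metabolic and mitochondrial stress, lies on the minus strand at chr8:70629393-70632456. It stood at 1.55, 1.18, 1.86 and 2.09 CPM after miR-92a-1-5p and at 2.18, 1.09, 3.65 and 3.39 CPM in the libraries labelled Mut.oligo, with 54 to 206 counts. The libraries labelled Mut.oligo from the 3 shared batches were above all 4 of the other group, and replicate 2 was below them. Untreated cultures held 1.87 ± 0.964 CPM (n = 4). The log2 fold change was -0.63 without a covariate (SE 0.353), and the gene fell by 0.85 with the batch (SE 0.105, edgeR adjusted p = 0.0232). Leaving out single libraries moved that adjusted p between 0.00951 and 0.308. It stayed under 0.05 only without replicate 1 of miR-92a-1-5p. Tgfbi, a matrix protein induced by the same family, held 1.5, 3.34, 2.45 and 2.25 CPM against 5.76, 2.98, 4.55 and 4.08 CPM, and all 3 within-batch differences lay between -0.88 and -0.78. It fell in the fit of 8 libraries (edgeR adjusted p = 0.00122) and not in that of 16 (0.0960).

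On the receptor side of RNA sensing no gene was called without a covariate. Tlr7 held 1.29, 0.788, 1.36 and 1.52 CPM against 0.983, 0.911, 0.644 and 0.988 CPM. The ranges overlapped, the differences within the batches were -0.31, 1.03 and 0.60, and the log2 fold change was 0.49 (unadjusted p = 0.0492, edgeR adjusted p = 1.00). For the adaptor gene Myd88 it was -0.02 (95% interval -0.36 to 0.31), and for Sarm1, an adaptor that also drives axon loss, 0.02 (-0.11 to 0.15). For Irak4, another gene of this pathway, it ran from 0.31 to 0.76 without a covariate when single libraries were left out. Without replicate 1 of miR-92a-1-5p the edgeR unadjusted p for Irak4 was 0.128. In the Toll-like receptor list (28 tested) 19 members were positive and 9 negative without a covariate. The list median was 0.14 without a covariate and 0.02 with the batch. At an unadjusted p under 0.05 with the batch, 1 member was higher and 3 lower, against 4.02% and 4.85% of all genes. The interferon and RNA sensing list (24 tested) held 1 and 1. Its median was 0.27 without a covariate, with 21 members positive and 3 negative, and 0.08 with the batch.

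Microglial markers were scarce in both groups. Tmem119 and P2ry12, which define resident microglia, stayed under 1 CPM in every library, and the summed microglial markers ran from 7.94 to 11.8 CPM after miR-92a-1-5p and from 7.63 to 11.2 CPM in the libraries labelled Mut.oligo. Of the 27 members of the microglia list that were tested, 2 were higher and 1 lower at an unadjusted p under 0.05 with the batch. The shares over all genes were 4.02% and 4.85%. Adgre1, which encodes the macrophage antigen F4/80, was among the genes with the smallest p whose groups did not overlap. It held 9.96, 9.76, 10.9 and 9.28 CPM against 7.82, 6.60, 7.38 and 6.62 CPM, with 7.80 ± 1.37 CPM in untreated cultures (n = 4). For this gene the log2 fold change was 0.49 (SE 0.120, unadjusted p = 0.000773, edgeR adjusted p = 1.00) and the differences within the batches were 0.32, 0.56 and 0.49. C3ar1, the receptor for complement fragment C3a, held 5.64, 4.48, 3.80 and 4.58 CPM against 3.12, 2.47, 3.08 and 3.09 CPM. Untreated cultures held 4.14 ± 1.13 CPM of it and libraries labelled miR-124-5p 4.20 ± 0.258 CPM (n = 4 each), both above the mean of 2.94 CPM labelled Mut.oligo. Adgre1 and C3ar1 were 2 of 163 genes higher without overlap. Adgre1 had an edgeR adjusted p of 0.0158 in the fit of 8 libraries with the batch, where its log2 fold change of 0.45 was under the size required for a call, and C3ar1 had 0.113.

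**Figure D4:**
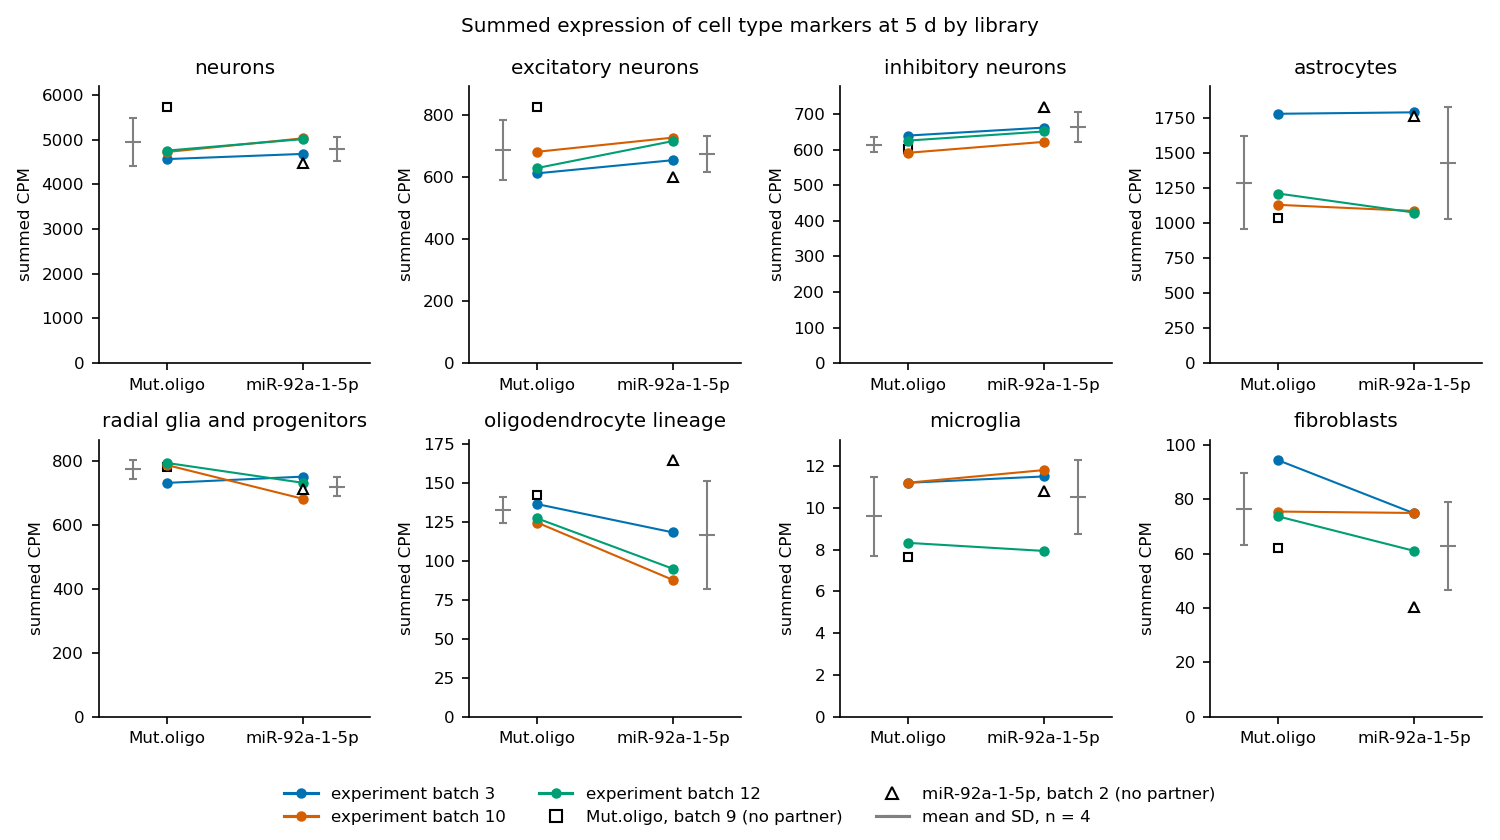
Summed CPM of the markers of 8 cell types in each of the 8 libraries, with lines joining libraries of 1 batch, open symbols for libraries without a partner and grey bars for the mean and SD of 4. The oligodendrocyte lineage sums descend in all 3 batches, and the neuron sums run from 4472 to 5030 CPM after miR-92a-1-5p and from 4565 to 5742 CPM in the libraries labelled Mut.oligo.

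Among the genes selected for small p without overlap, several others had known roles in metabolism and transport. Slc7a3, a carrier of cationic amino acids, held 82.9, 72.8, 69.5 and 63.7 CPM against 59.2, 37.9, 53.7 and 47.9 CPM (log2 fold change 0.54, SE 0.206, edgeR unadjusted p = 0.0179). Lcat, the enzyme that esterifies cholesterol on lipoproteins, held 2.48, 2.43, 1.84 and 2.16 CPM against 1.53, 0.790, 1.52 and 1.35 CPM. Both were higher in all 4 miR-92a-1-5p libraries than in any of the other group. In the opposite direction, Ap1g2, a subunit of a clathrin adaptor, averaged 7.98 ± 0.490 and 10.6 ± 0.670 CPM (n = 4 each, log2 fold change -0.41, edgeR unadjusted p = 0.00145). The other genes chosen in this way were C130071C03Rik, Gm11966, Grm2, Itga9, Nmbr and Pls1, which were higher, and 4732416N19Rik, 4930579G24Rik, Catsperg1, Dffb, Ets1, Gigyf1, Ltk, Rsrp1 and Slc38a3, which were lower. Without a covariate the edgeR adjusted p was 1.00 for each of these genes. In the fit of 8 libraries with the batch it was 0.0277 for Ap1g2, 0.00149 for Slc7a3 and 0.00795 for the amino acid carrier gene Slc38a3, at log2 fold changes of -0.40, 0.36 and -0.31, under the size required for a call.

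Id3, an inhibitor of differentiation factors induced by bone morphogenetic protein (BMP) signals, was higher in each batch (0.82, 0.42 and 0.49). It stood at 5.48, 11.7, 8.95 and 7.60 CPM after miR-92a-1-5p and at 6.58, 4.78, 6.66 and 5.38 CPM in the libraries labelled Mut.oligo. Replicates 2 to 4 lay above the whole control group, and untreated cultures held 9.04 ± 1.43 CPM (n = 4). The log2 fold change was 0.53 without a covariate (SE 0.219, unadjusted p = 0.0277) and 0.63 with the batch (edgeR adjusted p = 0.125), and Id3 rose in the fit of 8 libraries (adjusted p = 0.00480). Its relatives did not share the size of this difference, with 0.26 for Id1 in the fit of 16 with the batch, 0.18 for Id2 and 0.16 for Id4. Of 18 members of the BMP and Id list, 3 were higher and 1 lower at an unadjusted p under 0.05 with the batch. The shares over all genes were 4.02% and 4.85%. Kera, a matrix proteoglycan gene, also rose in the fit of 8 libraries (edgeR adjusted p = 0.0132), at 1.29, 1.37, 3.72 and 2.54 CPM against 0.983, 2.61, 1.99 and 0.856 CPM. Its log2 fold change without a covariate was 0.48 (SE 0.479). With the batch over 16 libraries the adjusted p for Kera was 0.311 by edgeR and 0.0178 by DESeq2.

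The neuronal genes Map2, Syp, Nefl and Rbfox3 showed no difference beyond the spread. The intervals of Map2 and Rbfox3 were wider than the median interval given above. Map2, the dendritic microtubule protein, held 2284, 2260, 2245 and 2305 CPM against 2282, 2613, 1892 and 2050 CPM, a log2 fold change of 0.04 with a 95% interval of -0.24 to 0.32. The corresponding values were -0.03 (-0.21 to 0.15) for Syp, a synaptic vesicle protein, 0.07 (-0.05 to 0.20) for the neurofilament gene Nefl and -0.08 (-0.37 to 0.21) for Rbfox3, which encodes the neuronal nuclear antigen NeuN. Intervals of this width leave room for small differences in either direction.

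Neuronal gene lists had small positive medians with the batch, and not all of them without it. Of the 42 genes of dendrite, axon and cytoskeleton, 14 (33.3%) were higher and 0 lower in all 3 batches, against 16.1% and 15.3% of all genes. At an unadjusted p under 0.05 with the batch 5 were higher and 0 lower, against 4.02% and 4.85% of all genes. Robo2, a guidance receptor of axons, averaged 186 and 154 CPM (log2 fold change 0.27, edgeR unadjusted p = 0.0356). The list medians with the batch were 0.08 for dendrite and axon genes and for the 33 genes of glutamate receptors and the postsynaptic density, 0.04 for 25 synaptic vesicle genes and 0.06 for 23 genes of cortical neuron identity. Without a covariate they were -0.04, 0.01, -0.05 and 0.05 in the same order. With the batch and at an unadjusted p under 0.05, 2, 1 and 3 members of the last 3 of these lists were higher and 0 lower. By the same measure 9 of 32 activity-regulated genes were higher and 4 lower, among them Hdac9 (0.28), Bdnf (0.25) and Egr3 (0.24) on one side and Ier2 (-0.31) and Atf3 (-0.25) on the other. The summed excitatory markers, which were 601 to 728 CPM against 613 to 828 CPM, differed by 0.10, 0.09 and 0.19 within the batches, the direction opposite to that of the oligodendrocyte markers. Penk, a neuropeptide precursor gene, held 33.3, 21.0, 16.7 and 22.3 CPM against 16.5, 12.8, 12.5 and 16.8 CPM (log2 fold change 0.67, edgeR unadjusted p = 0.0332).

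The remaining lists are given by their counts higher and lower, which were 4.02% and 4.85% over all genes. With the batch and at an unadjusted p under 0.05, 0 of 27 genes of apoptosis and the p53 response were higher and 4 lower, and 0 of 20 genes of the integrated stress response were higher and 2 lower. For 28 genes of extracellular matrix and basement membrane the counts were 0 and 7. In all 3 batches 13 of them (46.4%) were lower, against 15.3% of all genes, with medians of -0.18, -0.01 and -0.18. For 14 CCN family and YAP target genes the counts were 2 and 2, for 19 endothelial and vascular growth factor genes 1 and 0, and for 15 mural cell genes 1 and 0. The 25 genes of cholesterol biosynthesis held 4 and 2, the 17 of the microRNA machinery 0 and 1, and 5 sex-linked genes 0 and 0. The cholesterol median changed from -0.23 without a covariate to 0.03 with the batch. Endothelial cells were nearly absent, with Cdh5, Cldn5 and Tek under 1 CPM in every library. The summed fibroblast markers were lower after miR-92a-1-5p, at 40.3 to 74.9 CPM against 62.2 to 94.3 CPM, and their part in the matrix genes was not tested.

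The genes that the study lists at 5 d had been chosen on these samples, so their direction is not independent evidence. Among the 9 listed for all 3 oligoribonucleotides, 0 were higher and 4 lower with the batch at an unadjusted p under 0.05, and the median was -0.24. The counts were 0 and 4 for the 9 listed for miR-124-5p besides miR-92a-1-5p, with a median of -0.16. For the 8 listed for Mut.oligo besides miR-92a-1-5p they were 1 and 6, with a median of -0.44. Olig2 was called in the 4 fits with the batch, Top2a in edgeR's fit of 8 libraries and Pclaf by DESeq2 on 16, and no other of the 26 genes was called in any of them. Without a covariate 4 genes were positive and 5 negative in the first of these lists, 5 and 4 in the second, and 1 and 7 in the third. Tagln, listed as lower, ran from 0.50 to 1.79 without a covariate when single libraries were left out. Spp1, which the study lists as higher than in untreated cells, codes for the matrix cytokine osteopontin. It held 2.82, 12.5, 13.1 and 11.98 CPM against 12.2, 3.93, 10.9 and 9.48 CPM. Replicate 1 of miR-92a-1-5p and replicate 2 labelled Mut.oligo lay far below the rest.

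**Figure D5:**
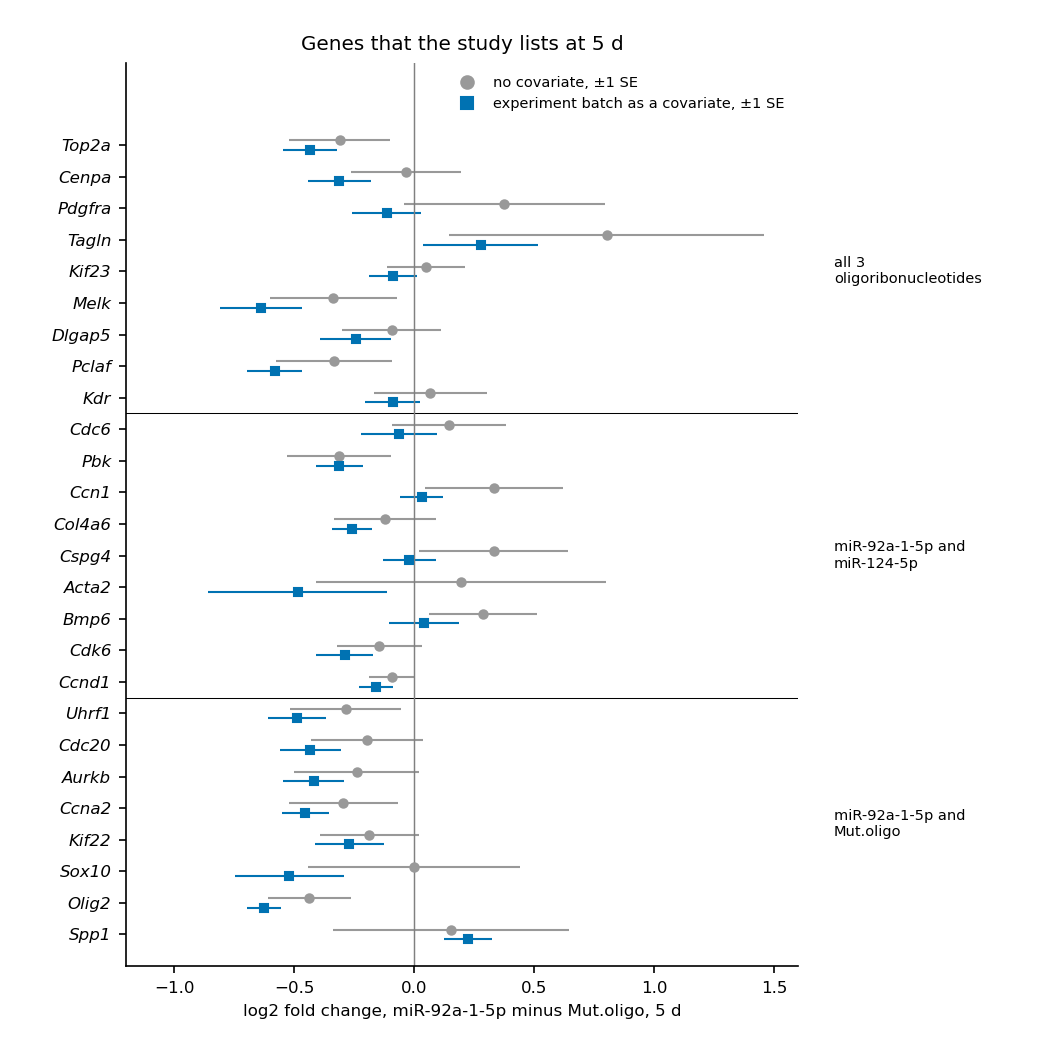
Log2 fold change of miR-92a-1-5p minus Mut.oligo at 5 d for the 26 genes that the study lists, without a covariate (grey circles) and with the experiment batch (blue squares), with bars of 1 SE. Olig2 lies at -0.44 and -0.62, and Pdgfra moves from 0.38 to -0.11 when the batch enters.

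Nuclear and ribosomal transcripts differed between the same libraries. Malat1, a nuclear RNA whose recovery varies with the preparation, held 164, 152, 76.9 and 82.0 CPM against 288, 188, 127 and 135 CPM. It fell by 0.79 in the fit of 8 libraries (edgeR adjusted p = 8.86e-09). In the fit of 16 with the batch its log2 fold change was -0.64 (SE 0.457, edgeR adjusted p = 0.634), which did not pass. Gm26917 held 28.7, 22.8, 28.1 and 21.3 CPM against 30.2, 33.5, 56.5 and 29.2 CPM, and Gm42418 held 589, 550, 750 and 454 CPM against 671, 674, 1945 and 516 CPM. Without a covariate Gm42418 had a log2 fold change of -0.70 with all libraries and of -0.08 without replicate 3 labelled Mut.oligo. These genes and Rn7sk were 4 of the 16 that fell in the fit of 8 libraries, and their part in the other 12 was not tested.

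Seed matches across the transcriptome did not separate the genes. Of 15651 tested genes with an annotated 3′ UTR, 1766 (11.3%) held at least 1 match to the miR-92a-1-5p seed, the letters CCCAACC on the transcribed strand. Their median log2 fold change was -0.00, against 0.00 for genes without a match, and at an unadjusted p under 0.05, 12 were higher (0.680%) and 9 lower (0.510%), against 0.722% and 0.780% of all genes with a 3′ UTR. The 249 genes with at least 2 matches had a median of -0.02. For the let-7b seed, which Mut.oligo shares, matched by CTACCTC in 1804 genes (11.5%), the median was 0.00. Lin28b and Hmga2, known let-7 targets with 4 let-7b matches each and 0 for miR-92a-1-5p, had log2 fold changes of 0.03 (95% interval -0.44 to 0.51) and -0.18 (-1.07 to 0.71).

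At 6 h, the same comparison on other libraries also called 0 genes higher (0%) and 0 lower (0%) of 18755, by edgeR, with 224 (1.19%) and 174 (0.928%) at an unadjusted p under 0.05. The difference between the 5 d and the 6 h effect passed for 0 genes in either direction (0%) of 20425, with 153 larger at 5 d (0.749%) and 274 smaller (1.34%) at an unadjusted p under 0.05. Over 13548 genes of at least 1 CPM, the fold changes at the 2 times correlated at r = 0.0698 across genes, which are not independent replicates, and had the same sign for 52.7%. Ccl3 was higher at both times, with log2 fold changes of 0.80 at 6 h (edgeR unadjusted p = 0.0106) and 0.79 at 5 d. Cxcl2, another chemokine gene, changed sign, from 1.21 at 6 h (edgeR unadjusted p = 0.00229) to -0.65 at 5 d (SE 0.690). Its difference between the times was -1.88 (edgeR unadjusted p = 0.0300). None of these values passed the adjusted threshold. The genes with the smallest p for the difference were Rdh5, a retinol dehydrogenase gene (0.70 at 5 d and -0.98 at 6 h), 1810013D15Rik and Grap2.

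With the libraries labelled miR-124-5p in place of those labelled Mut.oligo, an exchange added after seeing the data, the picture for the oligodendrocyte genes was similar in size. Without a covariate 0 genes passed in either direction. With the batch 0 rose and 2 fell, Olig2 by 0.55 on the log2 scale (SE 0.0650) and the growth factor gene Igf2 by 0.58 (SE 0.0670), each at an edgeR adjusted p of 0.0157. By edgeR, Olig1 had a log2 fold change of -0.51 (adjusted p = 0.117), Gdf15 of -0.50 (0.281), Egfr of -0.52 (0.582), Tgfbi of -0.71 (0.118), Cxcl10 of -0.40 and Id3 of 0.43 (0.389). The miR-92a-1-5p libraries are the same in both comparisons, so these values are not independent of those above. In the edgeR fits of 16 libraries with the batch, Olig2 was the single gene that fell against both sets of control libraries.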

How the data were processed

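RNA-seq counts per gene were deposited by the authors as 1 table of 32 libraries, made from stranded poly-A libraries with STAR, featureCounts and Subread on GRCm38. Per the labels each library was a biological replicate, but the labels do not tie libraries to animals, and p-values measure the spread between these libraries. Of 49671 gene IDs, 49412 were given a symbol from the GENCODE annotation of GRCm38. A gene was kept where 3 or more libraries held 5 or more counts. The main test was edgeR's quasi-likelihood test (edgeR 4.0.16, R 4.3.3) over the 16 libraries at 5 d, with TMM scaling, no covariate and Benjamini-Hochberg adjustment over all genes tested. CPM values were scaled with TMM. Alternatives used the experiment batch as a covariate, only the 8 libraries, DESeq2 1.42.0 and other filters. The scripts were tested on simulated data.

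Same-numbered replicates came from the same batch in 2 of 4 cases and correlated at -0.326 to 0.457, so the numbers were not taken as pairs. The labelled batch was used instead. Replicates of 1 group differed by more than sampling noise (chi-square over degrees of freedom 7.87 to 50.7 in 12 pairs), so no library was a copy. Counting intervals and floors cover counting error only.

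The members and the 27 gene lists (603 genes, 587 tested) were chosen with earlier results of these data known. Genes were named as those the study lists at 5 d, called genes, and up to 10 a direction with the smallest p among genes of at least 1 CPM whose groups did not overlap and whose 3 shared batches had 1 sign. For each list the 2 most expressed members and those with an unadjusted p under 0.05 were added, as were fixed genes of RNA sensing, inflammation and neurons, and the 3 smallest p for the difference in time. Igf2, Gm43488 and genes called only in alternatives, and other genes named for their batch values, were chosen after their values were seen. Some named genes are not reported here. Seed matches were counted in the longest annotated 3′ UTR of a gene.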

Additional observations from a re-analysis of the deposited data

Results flagged for a closer look

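The 8 libraries were screened for single libraries far from the other 3 of their group, by Dixon's ratio of the gap to the range (beyond its 95% critical value). Of 304 groups, 17 (5.59%) met this, and chance alone gives about 1 in 20. The genes set off were named genes, drawn in part from the study's list and from these data, so their kinds are not a result. Replicate 1 of miR-92a-1-5p, from batch 2, was set off for the following genes. It held 30.8 CPM of Pdgfra against 6.90 to 8.31 CPM in the other 3, 3.83 CPM of Sox10 against 0.772 to 1.14 CPM, 22.9 CPM of Mki67 against 8.47 to 10.4 CPM, 4.01 CPM of the centromere histone gene Cenpa against 1.76 to 1.93 CPM and 3.80 CPM of the kinesin gene Kif23 against 2.32 to 2.57 CPM. In the same library Gm11966 stood at 1.63 CPM (1.18 to 1.20 CPM in the others) and Rdh5 at 2.56 CPM (1.04 to 1.24 CPM), while Spp1 stood at 2.82 CPM (11.98 to 13.1 CPM) and the synaptic vesicle gene Syt1 at 766 CPM (826 to 837 CPM).

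In replicate 3 labelled Mut.oligo 3 RNAs that are not protein coding stood apart. Gm42418 was at 1945 CPM against 516 to 674 CPM, Gm26917 at 56.5 CPM against 29.2 to 33.5 CPM and Rn7sk at 5.08 CPM against 2.38 to 2.78 CPM. Replicate 1 labelled Mut.oligo held 603 CPM of the lipid-binding protein gene Fabp7 against 668 to 674 CPM and 149.6 CPM of Scg2 against 125 to 129 CPM. Replicate 2 labelled Mut.oligo held 2.47 CPM of C3ar1 against 3.08 to 3.12 CPM and 92.6 CPM of the metallothionein gene Mt1 against 134 to 140.0 CPM. Replicate 4 labelled Mut.oligo held 122 CPM of Rsrp1 against 110.4 to 112 CPM.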

How the results depend on the processing

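Of 154 named genes, 92 kept their sign under every setting and 62 had the other sign in at least 1. Counts of calls higher and lower were 0 and 0 without a covariate with DESeq2, another scaling, no filter, a filter of 10 counts in each library, no limit on the fold, only the 8 libraries, only the 6 of shared batches, and without each library in turn. With the experiment batch edgeR called 0 and 2 on 16 libraries and 2 and 16 on 8. DESeq2 called 2 and 11 on 16 libraries, 0 and 6 on 8 (chosen after seeing the data), and 1 gene for the difference between times, Gm43488, which held 0 to 6 counts per library. Without single libraries and with the batch, also chosen after seeing the data, calls ran from 0 to 1 higher and from 0 to 13 lower. The largest number came without replicate 1 of miR-92a-1-5p. Without replicate 1 labelled Mut.oligo 2 genes were lower, and without replicate 2 of miR-92a-1-5p 1 gene was. With the libraries labelled miR-124-5p in place of those labelled Mut.oligo and the batch, 0 and 2 were called. The covariate itself removes spread shared by a batch, and no other cause was tested.

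The replicate number as a block called 0 and 0 genes, with a smallest edgeR adjusted p of 1.00 on 16 libraries and 0.281 on 8, and the numbers do not pair these samples. At this depth genes under 1 CPM, such as Tnf, Il1a and Il1b with 0 counts in some libraries, had wide intervals.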
